A study of Mus musculus with 12 samples.

Results

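Type III taste cells are the sour-sensing cells of the taste bud, and 8 of their genes were followed here: Otop1, Pkd2l1, Pkd1l3, Car4, Snap25, Ddc, Ncam1 and Gad1. They were taken by symbol from 52670 gene symbols, and all 8 were among the 17432 genes with enough counts to be tested. Type III cells take up protons through the channel Otop1, depolarise, and release transmitter at conventional synapses with gustatory nerve fibres. They are also known for making serotonin and GABA, and Pkd2l1 and Pkd1l3 are their classical marker genes. The taste bud also holds glia-like type I cells and type II cells that sense sweet, bitter and umami, and all are renewed from progenitors around the bud.

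RNA was measured in epithelium of the circumvallate papilla, the large papilla of the hind tongue, from adult Sox2GFP mice of 11 to 12 weeks. All groups share that genotype, in which green fluorescent protein (GFP) reports Sox2, and no other allele or treatment is named. Dissociated cells were sorted by GFP brightness into the 4 bins Low, MedLow, HiMed and High, and cells without GFP were discarded. Each bin has 3 libraries of polyadenylated RNA, and each replicate pooled 7 to 13 mice. The bins are windows of brightness rather than cell types. A difference between bins can come from fewer cells of a type or from less RNA per cell, and these cannot be told apart in such bulk samples.

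Libraries held 25.7 to 55.6 M estimated counts. Levels within a gene are given in CPM, counts per 1000000 scaled by the TMM method, and ± marks the SD over n = 3 libraries. Levels of different genes are set side by side only in TPM, which is corrected for transcript length. Ratios of CPM between a pair of genes, and sums of CPM over a list, are used only to compare bins. Log2 fold changes, their standard errors (SE) and adjusted p-values come from the quasi-likelihood test of edgeR, adjusted by the Benjamini-Hochberg method over all genes tested, and a gene was called at an adjusted p below 0.05. The 6 comparisons between bins share libraries, so they are not independent of each other. The p-values measure the spread between the libraries of a bin. The main fit did not use the replicate number, and a fit with that number as a block was run as an alternative.

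Promoter windows of 250 bases before the start site are shown for 3 of the genes, Otop1, Pkd1l3 and Gad1. Otop1 had its own highest level in the brightest bin, and Pkd1l3 had its own lowest level there. The window of Gad1 had the most matches to a SOX-type motif. They come from the RefSeq table of GRCm38.p6, another build than the mm39 named for the deposited files, and lie on the plus strand at chr5:38277154-38277403 (Otop1), chr8:109613984-109614233 (Pkd1l3) and chr2:70561879-70562128 (Gad1). Capitals mark matches to CTTTGT or its other-strand form ACAAAG.
Otop1: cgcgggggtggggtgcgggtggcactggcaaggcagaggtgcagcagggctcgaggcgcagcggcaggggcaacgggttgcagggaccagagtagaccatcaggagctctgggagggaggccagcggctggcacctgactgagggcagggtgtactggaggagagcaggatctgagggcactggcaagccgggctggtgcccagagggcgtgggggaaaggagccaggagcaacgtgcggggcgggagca
Pkd1l3: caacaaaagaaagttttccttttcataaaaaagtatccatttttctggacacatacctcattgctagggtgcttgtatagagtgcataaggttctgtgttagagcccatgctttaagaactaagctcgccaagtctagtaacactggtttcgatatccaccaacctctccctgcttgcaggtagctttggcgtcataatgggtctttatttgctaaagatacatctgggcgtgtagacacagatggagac
Gad1: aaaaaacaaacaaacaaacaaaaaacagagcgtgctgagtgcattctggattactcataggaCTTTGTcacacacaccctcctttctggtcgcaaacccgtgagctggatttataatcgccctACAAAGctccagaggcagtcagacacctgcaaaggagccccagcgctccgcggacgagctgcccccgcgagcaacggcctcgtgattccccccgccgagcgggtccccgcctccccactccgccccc
The Otop1 window was 70.0% G and C, that of Gad1 58.0% and that of Pkd1l3 42.0%. Gad1 had 2 matches to CTTTGT, Otop1 and Pkd1l3 had 0, and 16.5% of all 32851 windows of this length held at least 1. The E-box CAGCTG, the same on both strands, was in none of the 3 and in 13.0% of all windows. Windows were at hand for 5 of the 8 genes, which adds Car4, with 0 matches to CTTTGT, and Ddc, with 1 in each of its windows. A match is a description of letters and not of a bound site.

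Between the brightest and dimmest bins the genes parted. Otop1 rose, while Pkd2l1, Pkd1l3, Snap25, Ddc and Gad1 fell, and Car4 and Ncam1 were not called. These are 6 of 8 genes in High against Low, 1 higher and 5 lower, where 41.4% of all genes tested were called. Their median log2 fold change was -1.85, beside -0.01 over all genes tested. By direction, 20.1% of all genes were called higher and 21.2% lower. The 8 genes were chosen with earlier results of these data known, so these shares are a description and not a test of the group. In High against MedLow 1 of the 8 was higher and 3 lower (background 38.0%, of which 18.2% higher and 19.8% lower), and in High against HiMed 1 was higher and 4 lower (22.1%, 10.6% and 11.6%). Among the dimmer bins fewer were called: 0 higher and 2 lower in HiMed against Low (23.6%, 12.4% and 11.3%), 2 higher and 0 lower in HiMed against MedLow (13.5%, 7.38% and 6.12%), and 0 higher and 1 lower in MedLow against Low (6.60%, 4.08% and 2.52%). In the test for a difference anywhere among the bins, 5 of 8 were called (41.8%): Otop1, Pkd2l1, Pkd1l3, Snap25 and Ddc. Libraries of the 2 bins compared, described below as overlapping or not, stood wholly apart for 52.4% of all genes in High against Low, 51.3% against MedLow and 35.3% against HiMed. That share was 38.6% in HiMed against Low, 32.8% in HiMed against MedLow and 27.4% in MedLow against Low. Sox2, the gene the sort was on, had 70.3 ± 6.17 CPM in Low and 373 ± 12.8 in High. It rose by 1.93 on the log2 scale from MedLow to High (SE 0.08, edgeR adjusted p = 2.4e-09). As the bins were sorted on its reporter, this describes the sort and is not an independent test.

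**Figure D1:**
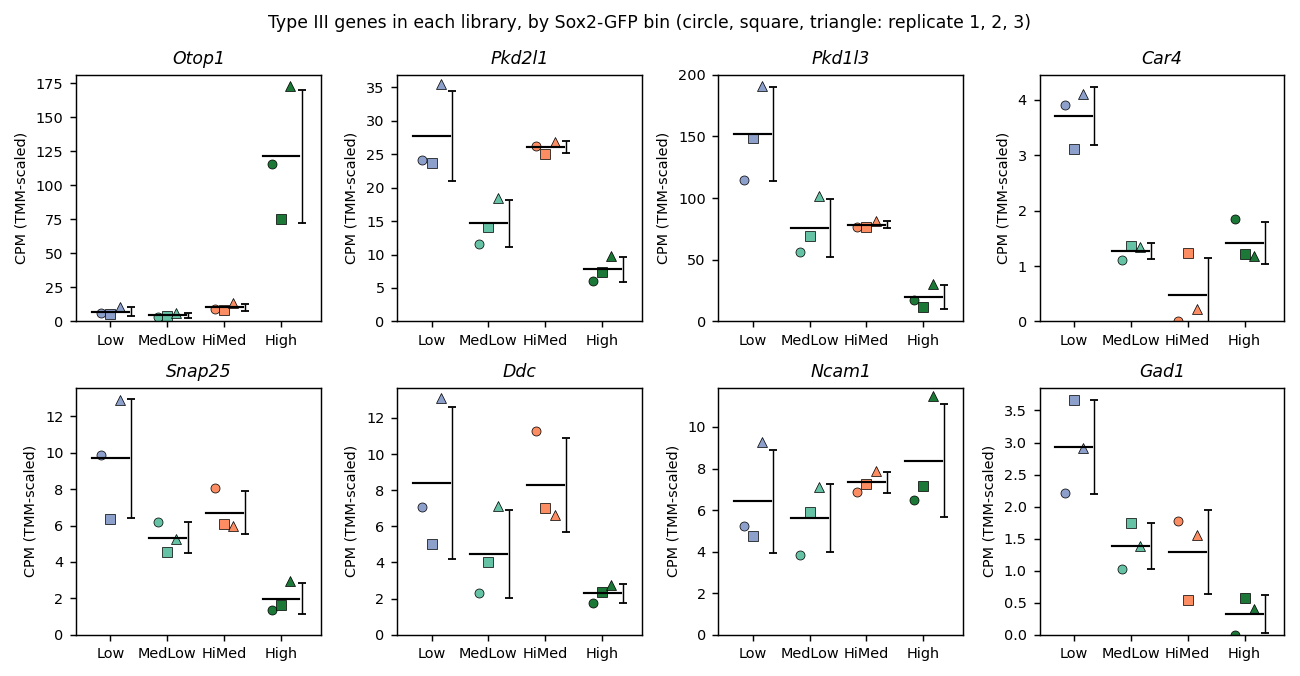
CPM of each of the 8 genes (vertical axes, linear from 0, a range of its own per gene) in the 12 libraries, by GFP bin (horizontal axis); symbols are replicates, the line is the mean and the bar beside it the SD over 3 libraries, cut off where it would pass below 0. Otop1 is high in the 3 High libraries (75.4 to 173 CPM), where Pkd2l1, Pkd1l3 and Snap25 have their lowest values.

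Otop1 encodes the proton channel through which sour stimuli enter the cell. Its level was 5.98, 5.12 and 10.7 CPM in Low replicates 1 to 3, 3.09, 4.31 and 6.58 in MedLow, 9.23, 8.59 and 13.5 in HiMed, with 116, 75.4 and 173 in High. The High libraries stood far above all others, and the HiMed libraries above those of MedLow, while Low overlapped with both middle bins. The log2 fold change of High was 4.05 over Low (SE 0.37, edgeR adjusted p = 1.3e-06), 4.71 over MedLow (SE 0.39, adjusted p = 6.1e-07) and 3.54 over HiMed (SE 0.36, adjusted p = 1.6e-05). Each of these was called in all alternatives tried. From lowest to highest mean the order was MedLow, Low, HiMed and High, and the lower neighbours did not differ beyond their spread: MedLow against Low gave -0.66 (adjusted p = 0.402) and HiMed against Low 0.51 (adjusted p = 0.340). With the replicate number as a block both were called in edgeR, at -0.62 (adjusted p = 0.0441) and 0.56 (adjusted p = 0.0261).

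Otop1 was also higher in HiMed than in MedLow, by 1.17 (SE 0.35, edgeR adjusted p = 0.0442). That call sat near the threshold: it was lost with robust priors (an alternative added after seeing the data) and with TPM + 1, and also without Low replicate 1, MedLow replicate 1 or 2, HiMed replicate 1 or 3, or High replicate 1, and adjusted p ran from 4.5e-04 to 0.165 over the alternatives. Of its relatives in the same proton channel family, Otop3 went the other way, with 32.7 ± 6.48 CPM in High and 67.5 ± 6.49 in Low (-1.05 on the log2 scale, adjusted p = 9.0e-05). Otop2 had 44.0 ± 11.4 CPM in Low and 28.3 ± 9.45 in High and was not called (-0.63, adjusted p = 0.116).

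Pkd2l1 encodes a polycystin channel subunit and is the marker by which sour cells were first set apart. It had 24.1, 23.6 and 35.4 CPM in the Low libraries, 11.5, 14.1 and 18.4 in MedLow, 26.2, 25.0 and 26.8 in HiMed, with 6.06, 7.45 and 9.84 in High. Low and HiMed overlapped at the top, MedLow lay below both, and High lay below MedLow. High was lower than Low by a log2 fold change of -1.83 (SE 0.22, edgeR adjusted p = 1.5e-05), than HiMed by -1.74 (SE 0.22, adjusted p = 8.5e-05) and than MedLow by -0.92 (SE 0.22, adjusted p = 0.00422). The last was not called on the TPM scale, with limma adjusted p = 0.0766 at a pseudocount of 1 and 0.0626 at 0.1.

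The level of Pkd2l1 thus did not follow brightness step by step. It fell from Low to MedLow by 0.91 on the log2 scale (SE 0.21, edgeR adjusted p = 0.0206) and was higher in HiMed than in MedLow by 0.82 (SE 0.21, adjusted p = 0.0212), while HiMed against Low was -0.09 (adjusted p = 0.825). The step down was not called without Low replicate 3 or MedLow replicate 1 or 2, nor on the TPM scale (adjusted p up to 0.107). The step up was not called without MedLow replicate 1 or 2, or HiMed replicate 1 or 3 (adjusted p up to 0.0892).

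Pkd1l3 encodes the large partner protein that forms a complex with Pkd2l1. It had 115, 149 and 191 CPM in Low, 56.3, 69.4 and 102 in MedLow, 76.7, 76.6 and 81.7 in HiMed, with 17.4, 11.4 and 30.6 in High. All Low libraries were above all others and all High libraries below all others, with the middle bins overlapping. High was lower than Low by a log2 fold change of -2.94 (SE 0.32, edgeR adjusted p = 5.4e-06), than HiMed by -1.98 (SE 0.31, adjusted p = 4.1e-04) and than MedLow by -1.94 (SE 0.31, adjusted p = 1.9e-04).

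Between the dimmer bins the results for Pkd1l3 hung on single libraries. HiMed was lower than Low by -0.95 (SE 0.29, edgeR adjusted p = 0.0308), a call lost without Low replicate 2 or 3 or any 1 of the 3 HiMed libraries, with robust priors, and on the TPM scale, with adjusted p up to 0.132. MedLow against Low was not called (SE 0.30, adjusted p = 0.0647). It was called with the replicate block (-1.01, adjusted p = 0.00600), with no filter (adjusted p = 0.00182) and with the 2 bins fitted alone (adjusted p = 0.0169), and also without MedLow replicate 3, High replicate 2 or High replicate 3. The gene overlaps Ist1 on the opposite strand, and whether the counting used strand is not given in the sources used here. Ist1 had 171 ± 19.5 CPM in Low and 166 ± 2.44 in High, and was not called in that comparison (log2 fold change -0.05, adjusted p = 0.723).

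In the wider Otop and Pkd families, Otop1 alone was called higher in High than in Low. Of 10 Otop and Pkd genes, with Otop1, Pkd2l1 and Pkd1l3 included, 9 were tested. In that comparison 1 was higher, 5 lower and 3 not called, beside 20.1% called higher and 21.2% lower over all genes tested. Beside the genes above, Pkd1 was lower in High at 107 ± 7.11 CPM than in Low at 137 ± 6.27 (-0.35 on the log2 scale, adjusted p = 0.00755). Pkd2l2 had 0.786 ± 0.644 CPM in Low and 0 counts in High, at least 39.2-fold lower when High is set to a floor of 3 counts in all. That value rests on Low replicates 1 and 3, as Low replicate 2 had 2 counts. Pkd2l2 is counted among the 5 called lower in High against Low, but it was not called in the test among the 4 bins (edgeR adjusted p = 0.0776). Intervals and floors here cover counting error only.

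**Figure D2:**
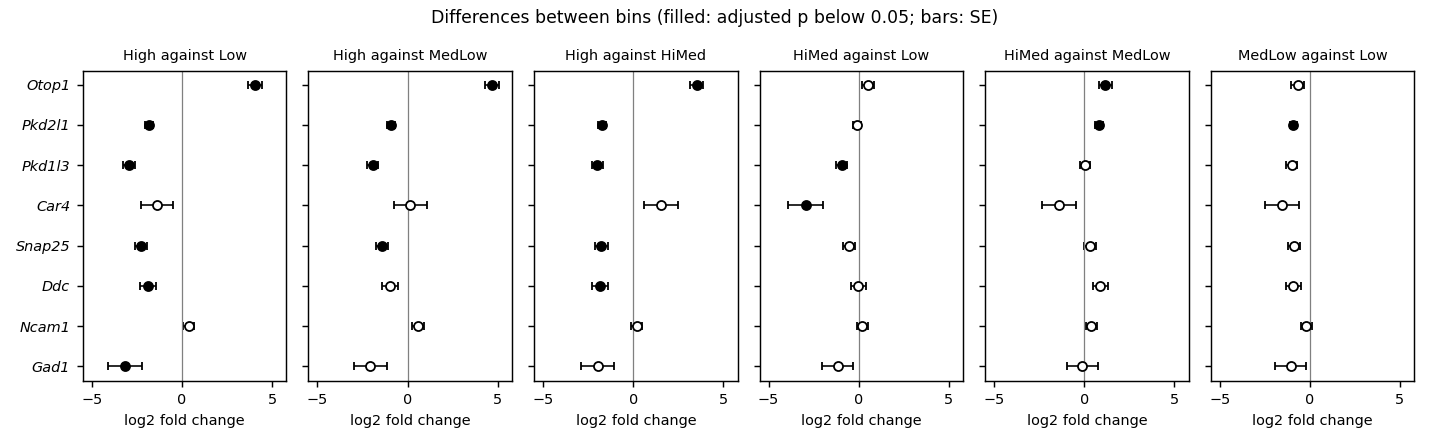
Log2 fold change of the first-named bin over the second (horizontal axes) for the 8 genes in the 6 comparisons; filled points have an edgeR adjusted p below 0.05 and bars are the SE. Otop1 lies to the right of 0 in the 3 comparisons of High, by 3.54 to 4.71, while Pkd2l1, Pkd1l3 and Snap25 lie to the left with filled points.

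Car4 encodes a membrane-bound carbonic anhydrase known for its part in the taste of carbonation. It had 3.91, 3.11 and 4.10 CPM in Low, 1.11, 1.36 and 1.34 in MedLow, 0, 1.23 and 0.217 in HiMed, with 1.85, 1.21 and 1.18 in High. Low lay above all other libraries, and HiMed had the widest spread, from 0 counts in replicate 1 to 45 in replicate 2. HiMed was lower than Low by -2.95 on the log2 scale (SE 0.98, edgeR adjusted p = 0.0426). The call was lost on leaving out any 1 Low library, any 1 MedLow library or HiMed replicate 3, and with the 2 bins fitted alone (adjusted p up to 0.136). High against Low was -1.39 (SE 0.91, adjusted p = 0.254), although all 3 High libraries were below all Low libraries. That comparison was called when the 2 bins were fitted alone (-1.41, adjusted p = 0.0232). MedLow against Low was -1.55 (SE 0.92, adjusted p = 0.461), with all MedLow libraries below all Low libraries, and was also called with the 2 bins alone (adjusted p = 0.0139). Without HiMed replicate 2, Car4 was lower in HiMed than in Low by -4.99, lower than in MedLow by -3.44 (adjusted p = 0.0312), and higher in High than in HiMed by 3.61 (adjusted p = 0.0202). The counts behind these values are small, 401 in Low, 150 in MedLow, 57 in HiMed, with 208 in High over the 3 libraries of each.

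Snap25 encodes the plasma membrane SNARE protein that drives fusion of synaptic vesicles, and in the bud it marks the cells with synapses. It had 9.86, 6.37 and 12.9 CPM in Low, 6.22, 4.55 and 5.24 in MedLow, 8.06, 6.10 and 5.99 in HiMed, with 1.37, 1.61 and 2.95 in High. High lay below every other library, MedLow lay just below Low, and HiMed overlapped with both. High was lower than Low by -2.29 (SE 0.34, edgeR adjusted p = 1.0e-04), than HiMed by -1.76 (SE 0.34, adjusted p = 0.00201) and than MedLow by -1.43 (SE 0.33, adjusted p = 0.00393). On the log2(TPM + 1) scale, which shrinks the change of low genes, these sizes for Low and MedLow were -1.66 and -0.80 and were still called. None of the 3 comparisons among the dimmer bins was called for Snap25 (adjusted p 0.166, 0.284 and 0.601).

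Few other genes of vesicle exocytosis were called. Of 15 tested, Snap25 included, 1 was higher in High than in Low, 2 lower and 12 not called, with a median log2 fold change of -0.20. Of all genes tested, 20.1% were called higher in that comparison and 21.2% lower. Unc13a, which primes vesicles for fusion, was the other that fell, from 6.52 ± 2.19 to 3.34 ± 0.470 CPM (-0.96, adjusted p = 0.0199). Its gene overlaps Colgalt1 on the opposite strand, with up to 111 CPM.

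Ddc encodes aromatic amino acid decarboxylase, which makes serotonin from its precursor. It had 7.06, 5.04 and 13.1 CPM in Low, 2.31, 4.02 and 7.11 in MedLow, 11.3, 7.00 and 6.63 in HiMed, with 1.76, 2.34 and 2.77 in High. Low, MedLow and HiMed overlapped, and High lay below Low and HiMed but overlapped with MedLow. High was lower than Low by -1.88 (SE 0.44, edgeR adjusted p = 0.00352) and than HiMed by -1.86 (SE 0.44, adjusted p = 0.00784). High against MedLow was -0.97 (SE 0.43, adjusted p = 0.0960) and was called without MedLow replicate 1 (-1.27, adjusted p = 0.0354).

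The deposited TPM told less of Ddc. On that scale the difference from Low was -1.07 with a pseudocount of 1 (limma adjusted p = 0.134) and -1.23 with 0.1 (adjusted p = 0.126), and that from HiMed had adjusted p = 0.0966 and 0.0952. The counts per unit of TPM, which reflect the transcript length that the authors' quantification assigned, varied 2.60-fold between libraries for Ddc, 5.67-fold for Gad1 and 1.02-fold for Pkd2l1, beside a median of 1.283-fold over 13652 genes. For example, HiMed replicate 1 had 26.4 TPM of Ddc against 7.03 and 7.07 in the other HiMed libraries, while its CPM was 11.3 against 7.00 and 6.63.

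The serotonin genes were mixed. Of 8 listed, Ddc included, 5 were tested, and in High against Low 1 was higher (Maoa), 2 lower (Ddc and Slc6a4) and 2 not called. Over all genes tested, 20.1% were called higher and 21.2% lower. Slc6a4, the serotonin transporter that takes the transmitter back up, fell from 59.1 ± 1.96 CPM to 20.04 ± 4.98 between Low and High (-1.56, SE 0.16, adjusted p = 4.6e-06). It was not called between Low and MedLow (57.6 ± 2.47 CPM, adjusted p = 0.972) and was lower in HiMed than in Low (30.6 ± 5.08 CPM, -0.95, adjusted p = 7.2e-04). Maoa, which breaks serotonin down, rose from 25.96 ± 3.90 to 52.3 ± 3.69 CPM (1.01, adjusted p = 4.5e-06).

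Both genes of tryptophan hydroxylase, the enzyme before Ddc in serotonin synthesis, had too few counts to be tested. Tph1 had 7 counts in Low replicate 2 and 0 in the other 11 libraries. Tph2 had 38 counts in High replicate 2, 55 in High replicate 3 and 2 in HiMed replicate 2, with 0 elsewhere, at least 20.98-fold higher in High than in Low against a floor of 3 counts. The vesicular amine transporter Slc18a2 had 0 counts in High and at most 0.242 CPM in any library.

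Gad1 encodes a glutamate decarboxylase, which makes GABA. It had 2.21, 3.67 and 2.91 CPM in Low, 1.03, 1.74 and 1.39 in MedLow, 1.78, 0.547 and 1.56 in HiMed, with 0, 0.580 and 0.399 in High. All Low libraries were above all others, and High replicate 1 had 0 counts, which allows up to 0.0675 CPM in that library. High was lower than Low by -3.14 (SE 0.95, edgeR adjusted p = 0.0172). The value ran from -3.84 without High replicate 2 to -1.77 with TPM + 1, was -2.57 without High replicate 1, and was called in each alternative run. No other pair of bins was called, with High against MedLow at -2.07 (SE 0.92, adjusted p = 0.0952) and High against HiMed at -1.97 (SE 0.92, adjusted p = 0.149). DESeq2 called the comparison with MedLow (adjusted p = 0.0292).

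Gad2, the other gene for the same enzyme step, went the opposite way. It had 0, 0.161 and 0.259 CPM in Low, 0.129, 0.532 and 0 in MedLow, 6.31, 3.15 and 6.17 in HiMed, with 89.5, 86.3 and 126 in High. High exceeded Low by a log2 fold change of 9.53 (SE 0.64, edgeR adjusted p = 7.9e-08) and HiMed by 4.26 (SE 0.43, adjusted p = 1.7e-05). In TPM, Gad2 was 0 to 2.34% of the sum of both genes in the Low libraries and 99.1 to 100% in the High libraries, with 0 to 30.5% in MedLow and 30.4 to 80.9% in HiMed.

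Slc6a13, a GABA transporter of the cell membrane, followed Gad2. It had 0 counts in Low and MedLow, 0.668 ± 0.241 CPM in HiMed, with 7.50 ± 3.92 in High, at least 265-fold higher in High than in Low (edgeR adjusted p = 1.7e-05). Slc32a1, the transporter that loads GABA into synaptic vesicles, had 0 counts in all 12 libraries. Of the 6 GABA genes listed, 4 were tested, and in High against Low 2 rose (Gad2, Slc6a13), 1 fell (Gad1) and 1 was not called. The shares over all genes tested were 20.1% called higher and 21.2% lower.

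**Figure D3:**
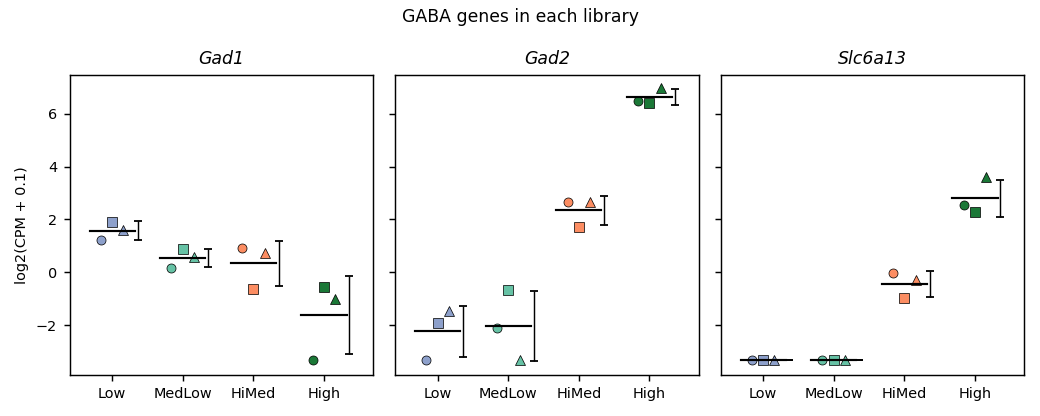
log2(CPM + 0.1) of Gad1, Gad2 and Slc6a13 (vertical axis) in the 12 libraries by bin; symbols are replicates 1 to 3 (circle, square, triangle), lines the mean and bars the SD over 3 libraries. Gad1 is lowest in High (0 to 0.580 CPM), where Gad2 reaches 86.3 to 126 CPM, and Slc6a13 is at 0 in all Low and MedLow libraries.

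Ncam1 encodes a cell adhesion molecule found on type III cells and on nerve fibres. It had 5.25, 4.76 and 9.26 CPM in Low, 3.86, 5.93 and 7.11 in MedLow, 6.85, 7.25 and 7.89 in HiMed, with 6.48, 7.14 and 11.5 in High. The libraries of all bins overlapped. No comparison was called: High against Low was 0.38 (SE 0.31, edgeR adjusted p = 0.372), that over MedLow 0.58 (SE 0.31, adjusted p = 0.175) and that over HiMed 0.19 (SE 0.31, adjusted p = 0.725). A difference too small to be called at this spread is not excluded by these values.

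To ask whether the genes kept a fixed proportion to each other, each was divided by Pkd2l1 in the same library, so the ratios share that gene. The log2 ratio of CPM differed among bins for 4 of 7 genes in an exact permutation test, adjusted over the 7 ratios. That test used all 369600 ways to place 12 libraries in 4 bins of 3. The genes were chosen with earlier results of these data known. The p-values of the ratios, here and below, are therefore a description and not independent evidence that the proportions differ. Otop1 to Pkd2l1 moved most, from -1.97 ± 0.24 in Low, -1.69 ± 0.20 in MedLow and -1.34 ± 0.31 in HiMed to 3.91 ± 0.50 in High (adjusted exact p = 0.00212). Ncam1 to Pkd2l1 was -2.14 ± 0.19 in Low, -1.39 ± 0.16 in MedLow, -1.82 ± 0.09 in HiMed, with 0.09 ± 0.14 in High (adjusted exact p = 9.1e-04). Thus Ncam1, not called in any comparison of its own level, was higher relative to Pkd2l1 in every High library than in any other. Pkd2l1 itself was lower in High than in Low by a log2 fold change of -1.83. A gene with an unchanged level would therefore also rise in its ratio to Pkd2l1.

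Pkd1l3 to Pkd2l1 had a lower mean in each brighter bin. It was 2.45 ± 0.20 in Low, 2.35 ± 0.10 in MedLow, 1.59 ± 0.04 in HiMed, with 1.25 ± 0.56 in High (adjusted exact p = 0.00557), and High replicate 2 was the lowest at 0.61. High replicates 1 and 3 had 1.52 and 1.63, beside 1.55 to 1.61 in HiMed, so the last step rested on High replicate 2. Low and MedLow overlapped. The ratio of TPM was 1.42, 1.12 and 2.26 in High and 1.93, 1.58 and 1.58 in HiMed. Car4 to Pkd2l1 was lowest in HiMed at -6.69 ± 2.41 against -2.87 ± 0.25 in Low (adjusted exact p = 0.00212), with the library of 0 counts among the 3. The ratios of Snap25 (adjusted exact p = 0.188), Gad1 (0.188) and Ddc (0.961) were not shown to differ. That of Ddc was -1.80 ± 0.39 in Low, -1.82 ± 0.46 in MedLow, -1.68 ± 0.42 in HiMed, with -1.74 ± 0.08 in High. With Pkd1l3 as the reference, the ratio of Ddc did differ among bins (-4.25 ± 0.54 in Low, -2.99 ± 0.64 in High, adjusted exact p = 0.0433).

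**Figure D4:**
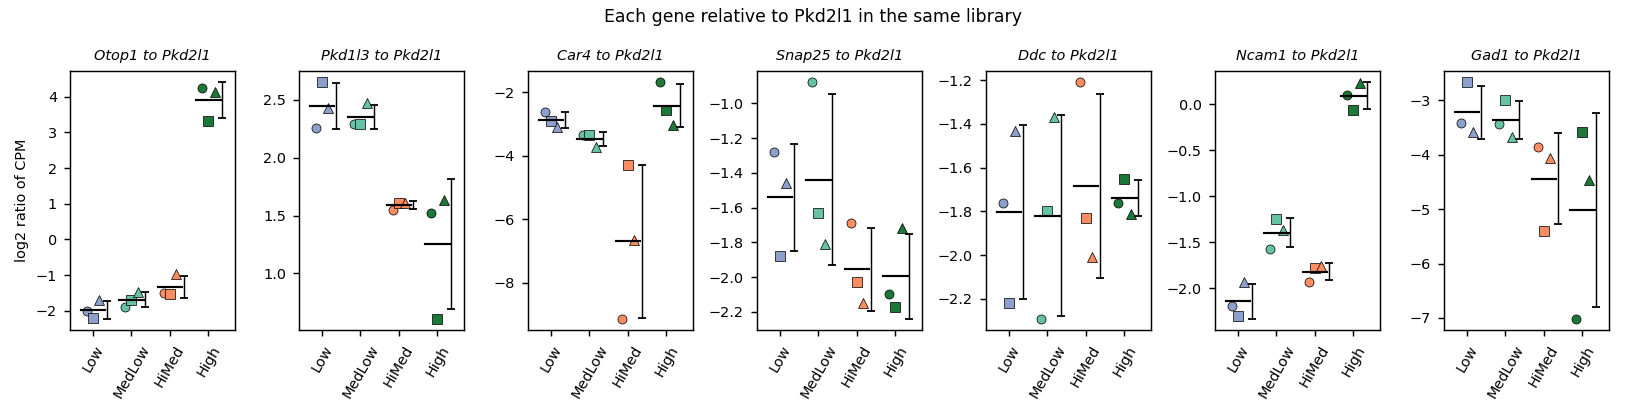
log2 ratio of the CPM of each gene to that of Pkd2l1 (vertical axes, a range of its own per gene) in the 12 libraries by bin; symbols are replicates, lines the mean and bars the SD over 3 libraries. The CPM are not corrected for length, so a ratio is compared only between bins. Otop1 and Ncam1 step up in High (3.91 and 0.09 on average), while Ddc stays between -2.29 and -1.21 in all libraries.

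In TPM, the scale on which genes can be set side by side, Pkd1l3 led the sour genes in the dim bins and Otop1 in the bright one. The mean level in Low was 42.7 ± 9.83 TPM for Pkd1l3, 13.1 ± 3.33 for Pkd2l1 and 3.90 ± 1.73 for Otop1. In High it was 80.4 ± 34.7 TPM for Otop1, 7.19 ± 4.41 for Pkd1l3 and 4.28 ± 1.06 for Pkd2l1. Library by library, the TPM of Pkd1l3 was 8.81 to 17.4 times that of Otop1 in Low, 7.73 to 9.19 times in MedLow and 2.58 to 4.63 times in HiMed, and that of Otop1 was 9.24 to 17.5 times that of Pkd1l3 in High. The order therefore turned between HiMed and High in all 3 libraries of each. Pkd1l3 and Pkd2l1 kept their order in all 12 libraries, with TPM ratios from 1.12 in High replicate 2 to 3.99 in Low replicate 2.

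Within a bin, several of the genes varied together even where they parted between bins. Over the 12 libraries, log2 CPM of Otop1 and Pkd2l1 had a Pearson correlation of -0.64, and after the mean of each bin was taken away it was 0.81. For Otop1 and Pkd1l3 the values were -0.76 and 0.87, and for Pkd2l1 and Ncam1 0.04 and 0.96. This did not hold for Car4, whose correlation within bins was 0.02 with Otop1 and ran from -0.47 with Gad1 to 0.07 with Ncam1. Gad1 was mixed, with 0.03 for Otop1 and 0.05 for Pkd1l3. It had 0.47 for Pkd2l1, 0.32 for Ddc, and 0.31 each for Snap25 and Ncam1. Replicate 3 had the highest CPM in 4 of 4 bins for Otop1, Pkd2l1, Pkd1l3 and Ncam1, but in 0 of 4 for Gad1. These are descriptions over 12 libraries that share 1 scaling, and libraries of 1 number may share a pool of mice.

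**Figure D5:**
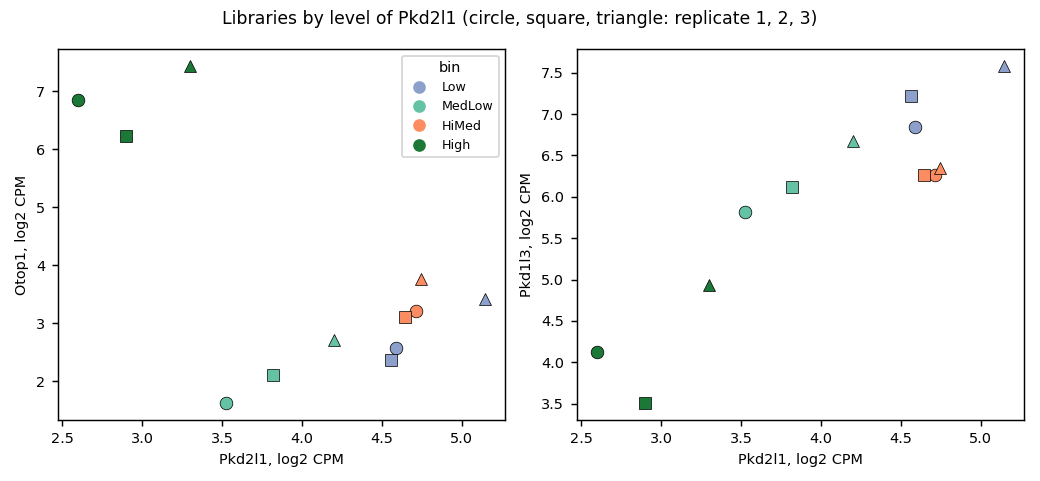
log2 CPM of Otop1 (left) and Pkd1l3 (right) against log2 CPM of Pkd2l1 in the 12 libraries, coloured by bin, with symbols for replicates 1 to 3. On the left the 3 High libraries sit apart, with Otop1 at 75.4 to 173 CPM and Pkd2l1 at 6.06 to 9.84 CPM, and in each bin replicate 3 is highest on both axes; on the right the High libraries are lowest on both axes.

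Genes with the most similar pattern were looked up for each of the 8 by Pearson correlation of log2 CPM over the 12 libraries, among tested genes with at least 10 CPM in their highest bin. For Otop1 they were Krt7 (0.992), Tmco3 (0.989), Nav2 (0.989), Tspan1 (0.987) and Abhd2 (0.987), and Krt7 went from 80.1 CPM in Low to 652 in High. For Pkd2l1 they were Ccn3 (0.984), Pnmal2 (0.95), Wfdc2 (0.936), Pkd1l3 (0.908) and Dner (0.906). Ccn3 had 115 CPM in Low, 60.3 in MedLow, 91.7 in HiMed, with 28.9 in High, with the same dip in MedLow. Ddc was most like Pkd2l1 itself (0.941).

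The remaining genes had other neighbours. Those of Pkd1l3 were Pnmal2 (0.968), Snhg11 (0.949), Ccn3 (0.944), Pxn (0.938) and Ap2a2 (0.936). Snap25 was most like Gpx3 (0.964), Car4 like Bean1 (0.953) and Ncam1 like Kif1a at a lower value (0.822). Gad1 was most like Dmbt1 (0.95), a secreted protein of the von Ebner gland beneath the papilla, which had 899.6 CPM in Low and 8.67 in High. Both genes had 0 counts in High replicate 1, where the prior count sets log2 CPM. The weight of that library on the correlation was not tested.

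Other genes known from type III cells and their lineage, listed apart from the 8, also went both ways. Of 15 listed, 12 were tested, and in High against Low 2 were higher, 6 lower and 4 not called, with a median of -1.22. Over all genes tested, 20.1% were called higher and 21.2% lower. Among those that fell were the regulator of G protein signalling Rgs10 (-3.50, SE 0.89, edgeR adjusted p = 0.00621), the sodium channel Scn2a (-3.37, SE 0.65, adjusted p = 8.5e-04) and the transcription factor Nkx2-2 (-2.22, SE 0.36, adjusted p = 2.3e-04). Nkx2-2 had 10.04 ± 3.94 CPM in Low, 5.71 ± 0.757 in MedLow, 7.47 ± 2.16 in HiMed, with 2.15 ± 0.947 in High.

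The calcium channel subunit Cacna1a rose, from 19.8 ± 4.72 to 57.7 ± 14.8 CPM (1.54, SE 0.25, adjusted p = 1.9e-04). It was also higher in High than in HiMed (1.23, SE 0.24, adjusted p = 0.00263).

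Markers of other cells also differed between bins, and their part in the results above was not tested. In High against Low, 20.1% of all genes tested were called higher and 21.2% lower. Of 12 type II markers, 8 were lower in High than in Low and 0 higher. Their summed level was 867 to 1091 CPM in Low, 594 to 860.2 in MedLow, 825 to 1014 in HiMed, with 429 to 508 in High. In Low and High these sums were mostly Itpr3, at 682 ± 41.9 and 356 ± 17.3 CPM. Each sum of a list is weighted towards its genes with the most counts. Of 4 type I markers 3 were higher and 1 lower, with sums of 63.0 to 74.0 CPM in Low, 33.3 to 37.9 in MedLow, 12.6 to 18.7 in HiMed, with 204 to 367 in High. Of 5 von Ebner gland markers 4 were lower and 0 higher, with sums of 710.1 to 2043 CPM in Low, 145 to 248 in MedLow, 34.1 to 65.2 in HiMed, with 1.22 to 93.5 in High.

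Nerve and Merkel cells also carry several of the 8 genes, such as Snap25 and Ncam1. The 9 neuron markers summed to 4.60 to 13.1 CPM in Low, 3.90 to 6.13 in MedLow, 2.73 to 8.40 in HiMed, with 4.59 to 6.26 in High. Of the 7 tested, 1 was higher in High than in Low and 1 lower, beside 20.1% and 21.2% of all genes tested. The 4 Schwann cell markers summed to 7.79 to 10.7 CPM in Low, 0.605 to 1.59 in MedLow, 1.56 to 2.59 in HiMed, with 2.28 to 3.53 in High, and 1 of 3 tested was lower in High than in Low. Of the 4 Merkel cell markers, Atoh1 was at 0 in Low, MedLow and High, Krt20 rose and Piezo2 and Isl1 fell. Their sums of 54.1 to 60.6 CPM in Low, 39.2 to 44.8 in MedLow, 39.99 to 61.5 in HiMed, with 385 to 546 in High were mostly Krt20 in High (435 ± 90.7 CPM), a keratin of other epithelial cells too. Endothelial markers summed to at most 1.98 CPM. Of 6 leukocyte markers, Cd3e, Klrb1c and Ncr1 were at 0 in all bins, and 1 of 3 tested was higher in High, with sums of 27.4 to 45.0 CPM in Low, 7.997 to 18.3 in MedLow, 27.7 to 63.4 in HiMed, with 103 to 308 in High. These sums were mostly Lyz2, a lysozyme gene, at 32.7 ± 8.49 CPM in Low and 172 ± 113 in High (2.40, adjusted p = 8.2e-04), and Cd68 and Ptprc were not called.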

How the data were processed

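RNA-seq of 12 sorted libraries was used. Per the submitters' processing notes, Salmon 1.4.0, DESeq2 1.28.1 and mm39 are named; the annotation used and whether strand was counted were not given in the sources used here. As values, the authors deposited estimated counts (expected counts per gene symbol) and TPM values. Expected counts were rounded and tested in R 4.3.3 with edgeR 4.0.16: filterByExpr (minimum count 10; the 35238 symbols left out held 0.0339% of counts), TMM scaling, 1 quasi-likelihood model of all 12 libraries (common biological coefficient of variation 0.366) and Benjamini-Hochberg adjustment over 17432 genes. Ratios used log2 CPM with a prior count of 2. Scripts were tested on simulated data. Alternatives were DESeq2 1.42.0, limma 3.58.1 on log2(TPM + 1) and log2(TPM + 0.1), other scalings and filters, a replicate block, pairs of bins fitted alone, and each library left out.

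The 8 genes and all lists were chosen with earlier results of these data known. Named were all 8 genes, up to 4 called genes of each list with the largest change or those that define it, the 5 most similar genes, and Sox2. Ist1, Colgalt1, Itpr3 and genes given by value to set beside a member (Otop2, Maoa, Tph1, Tph2) were added for the results they touch. Some genes of the lists are counted but not reported here by name. Floors are 3 counts. Libraries of a bin differed by more than counting noise (chi-square per degree of freedom 26.7 to 91.9).

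Each replicate is described as a pool of mice, and replicate numbers 1 to 3 occur in every bin; on that ground the numbers were taken as pairs, although no label states that libraries of 1 number share a pool. Deviations from bin means over 9650 genes correlated at 0.0586 to 0.411 in 18 same-number pairs (15 above 0.1) and at -0.321 to 0.101 in 36 others.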

Additional observations from a re-analysis of the deposited data

How the results depend on the processing

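The numbers of the 8 genes called in High against Low, MedLow or HiMed, in any difference among the 4 bins, and of ratios to Pkd2l1 that differ, stayed within 1.5 times in all alternatives run. Comparisons among the dimmer bins rested on few calls. HiMed against Low, with 2 called, gave 1 in the robust edgeR fit (chosen after seeing the data), 1 with the 2 bins alone, 1 with TPM + 1 and 1 with TPM + 0.1, and 0 to 2 when leaving out 1 library. HiMed against MedLow, with 2, gave 1 in the robust fit and 1 with TPM + 1, and 0 to 3 when leaving out 1 library. MedLow against Low, with 1, gave 2 with no filter, 3 with the 2 bins alone, 0 with TPM + 1 and 0 with TPM + 0.1, and 0 to 2 when leaving out 1 library. With the replicate block, which uses the pairing by number, MedLow against Low gave 3 called (Otop1, Pkd2l1 and Pkd1l3) and Otop1 was also called in HiMed against Low; it changed no other call. The cause of these changes was not tested. Of 1161 values of single genes and ratios under alternatives, 1108 kept their side of the threshold, 39 lost a call and 14 gained one. Of the 1108, 22 values of 8 results that were not called changed sign, and 0 called values reversed. In High against Low, 3512 genes were called higher and 3702 lower (48.7% higher). On the TPM scale this was 66.9% with a pseudocount of 1 and 66.1% with 0.1, and the median of all genes moved to 0.14 and 0.17 on the log2 scale. With library size only, HiMed against MedLow had 65.7% of called genes higher, beside 54.7%. Low counts of Car4 and Gad1 limit what can be said of them.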
